A study of Mus musculus with 18 samples.

Results

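The 4 miRNA names mmu-miR-615-3p, mmu-miR-423-3p, mmu-miR-690 and hsa-miR-6509-3p were read far more often in the MS2 control eluates of an RNA pull-down than in the eluates of the bait under study. They are 4 of 2042 names in the table and were chosen for that difference, so their control values and bait values relative to each other and to input are described here with no test. The change of each name with differentiation was tested within input RNA, which the choice did not use. It was also tested within the control eluates, within the bait eluates and as the difference between the control and input changes. Those tests draw on libraries that the names were chosen on, so their p-values are not independent of the choice. In both states every control library was above every bait library for all 4 names, as was the case for 17.2% of the 169 names tested in undifferentiated and 20.7% in differentiated cells. Nothing is read from that background for names chosen on this contrast.

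The samples were C2C12 cells, an established mouse myoblast line that fuses into myotubes when serum is lowered. The states compared were undifferentiated cells, grown with 10% FCS, and cells after 7 days of myogenic differentiation in 2% HS. Titles and characteristics gave the state, because the labelled treatment is the differentiation medium for both. Each state has 3 libraries of input RNA, 3 of eluates trapped with the MRTF-A 3'UTR and 3 of eluates trapped with MS2control, 18 libraries in all. The same line supplied every group. Nothing in the labels ties replicate libraries to separate cultures, so the spread behind each p-value is that between libraries and may be technical. The letters A, B and C name the libraries within a group and tie no library to one of another group.

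A miRNA is a short RNA that an Argonaute protein carries to target transcripts, which it recognises mainly through its seed, the bases near its 5' end. A hairpin gives rise to 2 arms, called 5p and 3p, of which often only one is kept. In a trapping experiment of this kind a bait RNA tagged with MS2 hairpins is held through the MS2 coat protein and the miRNAs that come with it are sequenced. The control bait carries the hairpins without the 3'UTR and gives the background of the method.

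The sequences of the 3 mouse names are shown because they differ in seed and in most letters, although all 3 were high in the control. Capitals mark the seed, bases 2 to 8. The sequences and positions are those of RefSeq on GRCm38.p6, which held 1603 of the 2042 names and 3 of the 4 names described here.
mmu-miR-615-3p: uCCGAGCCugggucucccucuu
mmu-miR-423-3p: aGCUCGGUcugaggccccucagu
mmu-miR-690: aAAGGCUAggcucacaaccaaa
miR-615-3p lies at chr15:103014969-103014990 on the plus strand, in an intron of Hoxc5, a homeobox gene of the Hoxc cluster. miR-423-3p lies at chr11:77078086-77078108 on the minus strand, in an intron of Nsrp1, which encodes a splicing regulator. miR-690 lies at chr16:28599940-28599961 on the minus strand, in an intron of Fgf12, a fibroblast growth factor homologue. All 3 are on the strand of their host gene.

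No other name in the table with a sequence had the seed or the whole sequence of any of the 3. Bases 2 to 7 of miR-615-3p, CCGAGC, are complementary to bases 2 to 7 of miR-423-3p, GCUCGG. Among 1679 mature names GCUCGG occurred in 11 and CCGAGC in 5. The longest complementary run between miR-615-3p and miR-690 was also 6 bases, and between miR-690 and miR-423-3p it was 4. A pair of the sequences was rich in G and C, since miR-615-3p had 63.6% and miR-423-3p 65.2%, above 85.4% and 91.2% of the 137 tested names with a sequence. miR-690 had 45.5%, above 28.5% of them, so base composition was not shared by the 3.

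The sequence of miR-690 differed from the others in how often it recurs in transcripts. Its whole sequence was found in annotated transcripts of 19 genes in GENCODE M21, of which 16 are themselves of type miRNA, against 1 gene, its own hairpin, for miR-615-3p and for miR-423-3p. Its bases 9 to 20, ggctcacaacca in DNA letters, occurred in transcripts of 882 of 55341 genes (1.59%). That was its most frequent run of 12 bases, and the next, bases 8 to 19, was in 86 genes. The most frequent run of 12 bases of miR-615-3p was in 42 genes and that of miR-423-3p in 25. By the median over all such runs the names were closer, at 38 genes for miR-690, 23 for miR-615-3p and 12.5 for miR-423-3p. How reads that match several places were counted is not given in the sources used here, so the miR-690 count may hold reads of other loci with the same letters.

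Seed matches to the bait were searched in the 3'UTR of Mrtfa, the gene that encodes MRTF-A, in a transcript whose 3'UTR has 1004 bases. GGCTCGG (miR-615-3p), ACCGAGC (miR-423-3p) and TAGCCTT (miR-690), the sense-strand complements of bases 2 to 8, did not occur. The shorter match to bases 2 to 7 of miR-690, AGCCTT, occurred once, at position 887, and those of miR-615-3p and miR-423-3p did not. Of the other miRNAs searched, the muscle miRNA miR-206-3p had a match to its bases 2 to 8 at position 781. miR-31-5p and miR-24-3p had no match to bases 2 to 8 and 1 each to bases 2 to 7. miR-615-5p and miR-423-5p had no match to either. These are letters in one annotated 3'UTR, and the sequence cloned in the bait was not analysed here.

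The values are CPM, counts per library scaled to a common size by the authors, and 1 read was worth 11.9 to 34.3 CPM in the control, 3.33 to 15.3 CPM with the bait and 1.66 to 3.05 CPM in input. Recovered reads per library were 15562 to 39695 in the control, 107165 to 544504 with the bait and 294112 to 860828 in input, so the control had the fewest. These are reads on the 2042 miRNA names only, and the full sequencing depth is not known here. Shares of reads and library totals refer to these reads throughout. The authors' scaling factors were 1.24 to 2.37 in the control and 0.341 to 0.634 with the bait. Folds between kinds of library therefore depend on the scaling, and folds on plain library totals are given beside them. The 5 markers of striated muscle summed to 225 to 1389 CPM in undifferentiated and 38898 to 57303 CPM in differentiated input. Blood, epithelial, endothelial and liver markers were at or below 9.18 CPM in every input library, and the neural markers at 38.7 to 262 CPM, with miR-124-3p at 0.

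**Figure D1:**
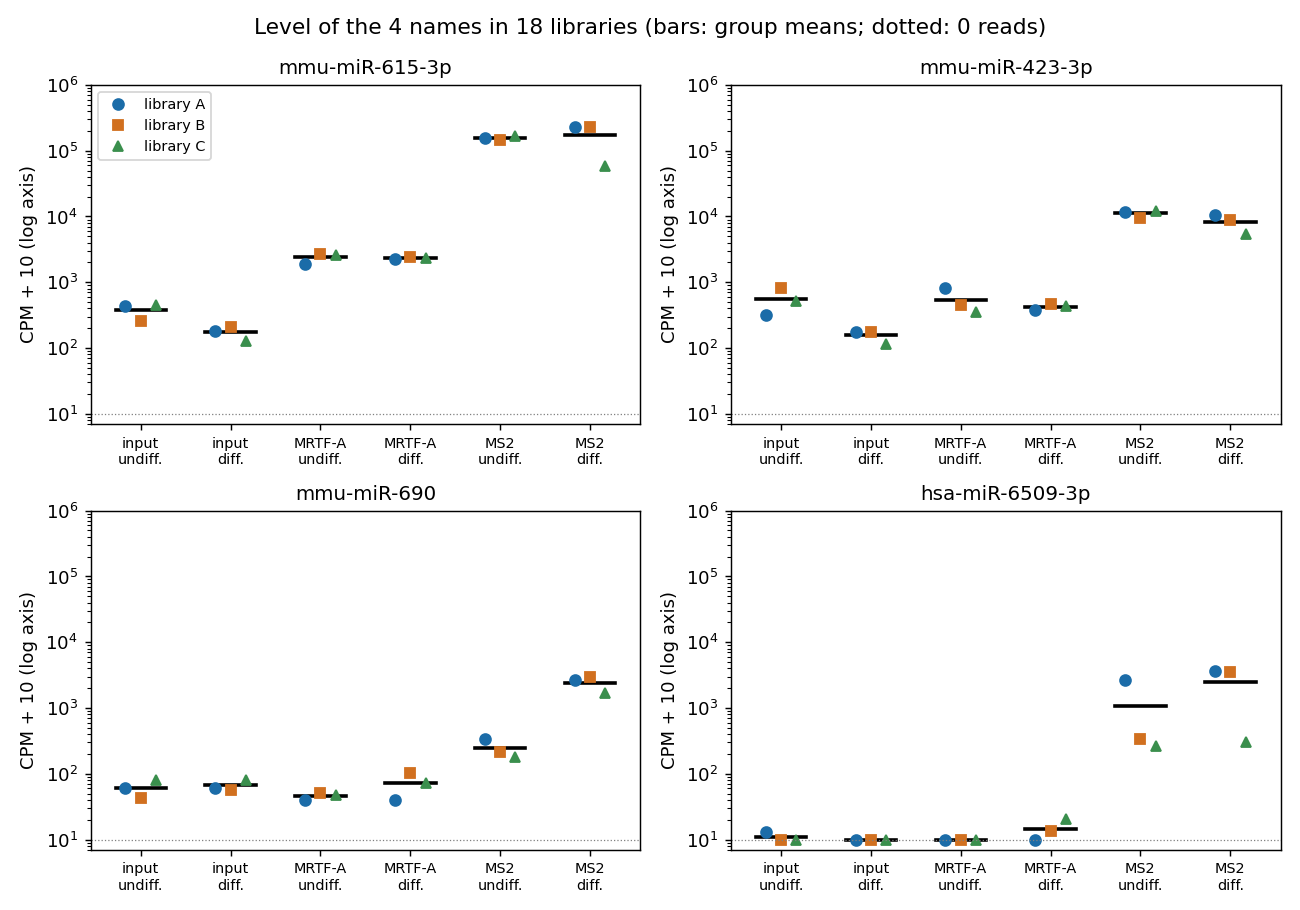
Level of each name in every library, as deposited CPM + 10 on a log axis, for input, MRTF-A and MS2 control libraries of undifferentiated and differentiated cells; points are libraries A to C, bars are group means and the dotted line marks 0 reads. All 6 control libraries lie above all bait and input libraries for each name, and on this scale miR-690 is the one whose control libraries separate by state.

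miR-615-3p was the most abundant of the 4 and, by group mean, the second most abundant name in the control in both states, after miR-6244. The undifferentiated control mean of miR-6244 was 175175 ± 172631 CPM (SD, n = 3). In undifferentiated control libraries B and C miR-615-3p had more reads than miR-6244, 12100 against 4152 and 7769 against 4885. In undifferentiated control libraries A, B and C miR-615-3p was at 154347, 143625 and 165833 CPM, and in the differentiated ones at 226069, 232495 and 59521 CPM. Differentiated library C was the one low value, and the states overlapped. As a share of reads the name took 22.9% to 31.9% of undifferentiated libraries (mean 28.4% ± 4.82, SD, n = 3). In differentiated libraries A and B it took 30.1% (95% Wilson interval 29.5 to 30.7) and 28.9% (28.3 to 29.5), and in C 14.1% (13.6 to 14.7). These reads carry no molecular identifiers, so intervals and the limits set by 0 reads cover counting error only.

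With the bait miR-615-3p was at 1916, 2650 and 2546 CPM in undifferentiated and 2250, 2442 and 2356 CPM in differentiated cells. In input it was at 426, 250 and 437 CPM and at 174, 199 and 118 CPM. The 3 kinds of library did not overlap in either state, with input lowest and control highest. On group means the control was 65.2-fold above the bait in undifferentiated and 73.5-fold above it in differentiated cells, or 243-fold and 179-fold on library totals. The bait in turn was 6.39-fold and 14.3-fold above input, or 3.37-fold and 6.38-fold on library totals. By mean level miR-615-3p ranked 110th and 122nd in undifferentiated and differentiated input, 33rd and 39th with the bait and 2nd in both controls. Its neighbours in the input order, miR-15b-3p (376 ± 118 CPM) and miR-125b-5p (368 ± 104 CPM) in undifferentiated cells, lay within its own spread of 371 ± 105 CPM (SD, n = 3).

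miR-423-3p, a broadly expressed miRNA, was by group mean the fifth most abundant name in the control in both states. It was at 11880, 9508 and 11975 CPM in undifferentiated and 10659, 8926 and 5362 CPM in differentiated control libraries. With the bait it was at 813, 440 and 340 CPM and at 366, 453 and 427 CPM, and in input at 308, 817 and 514 CPM and at 167, 165 and 105 CPM. Bait and input overlapped in undifferentiated cells, and in differentiated cells all 3 bait libraries were above all 3 inputs. The control was 20.9-fold and 20.0-fold above the bait in the 2 states, or 72.8-fold and 52.6-fold on library totals. The bait was 0.973-fold and 2.85-fold the input, or 0.543-fold and 1.26-fold on library totals, where the differentiated bait and input libraries overlapped.

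miR-690 was the scarcest of the mouse names in input, with 12 to 42 reads a library. It was at 51.8, 33.3 and 69.6 CPM in undifferentiated and 51.4, 47.0 and 71.0 CPM in differentiated input, and with the bait at 30.7, 41.5 and 37.8 CPM and at 30.5, 93.3 and 61.7 CPM. Bait and input overlapped in both states on the authors' scaling, and on shares of reads they did not. There the bait libraries held 0.00142% to 0.00213% in undifferentiated and 0.00169% to 0.00514% in differentiated cells, below every input library (0.00341% to 0.00578% and 0.00540% to 0.0105%). The bait was 0.711-fold and 1.10-fold the input, or 0.385-fold and 0.470-fold on library totals. In the control it was at 328, 202 and 171 CPM in undifferentiated and 2623, 2918 and 1706 CPM in differentiated libraries. Every differentiated control library was above every undifferentiated one, a separation that miR-690 alone of the 4 names showed on the authors' scaling. In shares of reads miR-423-3p separated too, the other way, at 1.76% to 2.30% in undifferentiated and 1.11% to 1.42% in differentiated control libraries. For miR-690 the control was 6.37-fold above the bait in undifferentiated and 39.1-fold in differentiated cells, or 23.0-fold and 104-fold on library totals. Bait libraries A, B and C held 2, 5 and 3 reads of miR-690 in undifferentiated and 7, 28 and 12 in differentiated cells. Undifferentiated bait A and C were thus at or below the 46.0 and 37.8 CPM of 3 reads. Folds and shares from the undifferentiated bait rest on few reads. The rank of miR-690 in the control was 63rd and 19th.

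hsa-miR-6509-3p, listed under a human name in a table of mouse cells, was read almost only in the control. It had 81, 28 and 12 reads in undifferentiated control libraries A, B and C and 111, 104 and 11 in the differentiated ones, which is 2658, 332 and 256 CPM and 3686, 3571 and 298 CPM. Library A of the undifferentiated and libraries A and B of the differentiated control were high and the other 3 low, in each case irrespective of state. The bait eluates held 0 reads in undifferentiated and 0, 1 and 2 in differentiated cells, and the inputs 1, 0 and 0 and then 0, 0 and 0. The limit that a count of 0 allows, 3 reads, would be 24.9 to 46.0 CPM in the undifferentiated bait libraries and 5.51 to 6.45 CPM in the differentiated inputs. Against that limit the control was at least 29.9-fold higher than the bait in undifferentiated cells, or at least 89.1-fold on library totals. Without undifferentiated control library A it was at least 8.12-fold higher on the authors' scaling. In differentiated cells, where the bait held 3 reads, the pooled ratio of control to bait was 567 (95% counting interval 192 to 2771), or 1547 (523 to 7557) on library totals.

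Together the 4 names took 25.1% to 34.3% of the reads of undifferentiated and 15.9% to 32.4% of differentiated control libraries, and at most 0.181% of any bait or input library. On the fitted scale, log2(CPM + 10), control minus bait was 6.03, 4.45, 2.34 and 5.96 for miR-615-3p, miR-423-3p, miR-690 and hsa-miR-6509-3p in undifferentiated cells. In differentiated cells it was 5.96, 4.24, 5.14 and 6.84. The median over all 169 names tested was -1.16 and -2.37, with 17.2% and 21.9% called higher in the control by limma. That balance turned with the scaling, from 29 higher and 73 lower in undifferentiated cells to 73 and 44 on library totals, and from 37 and 97 in differentiated cells to 58 and 61. By size of this difference the 4 names ranked 1st, 3rd, 13th and 2nd in undifferentiated and 2nd, 7th, 3rd and 1st in differentiated cells. Names of like size that are not among the 4 were miR-99a-5p (4.05 in undifferentiated cells), miR-199a-3p (3.72 and 4.60) and miR-676-3p (3.59 and 3.58). The rule gave no numeric limit.

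Differentiation was then followed within input RNA, which the choice of names did not use. miR-423-3p and miR-615-3p were lower in differentiated input and miR-690 was not called. miR-423-3p fell by 1.75 ± 0.39 (log2 difference ± SE, limma adjusted p = 0.00191), and the 3 differentiated libraries were all below the 3 undifferentiated ones. miR-615-3p fell by 1.12 ± 0.35 (limma adjusted p = 0.0149), again with no overlap. miR-690 differed by 0.14 (95% interval -0.61 to 0.88, limma adjusted p = 0.745). hsa-miR-6509-3p, with 1 input read in all, was not tested. In bulk RNA fewer cells that express a miRNA and less of it per cell cannot be told apart.

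Lower calls were common in input, so the 2 of 3 names tested must be read against them. Of 313 names tested, 145 (46.3%) were lower and 50 higher, 48.9% were lower with no overlap, and the median difference was -0.64. Relative to that median miR-423-3p was at -1.12, miR-615-3p at -0.48 and miR-690 at 0.77. The balance of calls depended on the scaling, with 91 lower and 87 higher by DESeq2 on recovered reads. The fall of miR-423-3p passed the threshold under all 14 alternatives (-2.10 to -1.11). That of miR-615-3p did not pass with DESeq2 (-0.47), on library totals (-0.63) or with TMM factors of the inputs alone (-0.47). It was also lost without differentiated input C (limma adjusted p = 0.0690), undifferentiated input A (0.0502) or undifferentiated input C (0.0543), and its adjusted p ranged from 0.00438 to 0.221 over the alternatives. In the authors' deposited table the log2 fold changes were -1.90 for miR-423-3p (FDR 0.000213), -1.18 for miR-615-3p (FDR 0.0854) and 0.10 for miR-690 (FDR 1).

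The other arms of the hairpins moved the same way in input. miR-615-5p fell by 1.50 ± 0.37 (limma adjusted p = 0.00385) and miR-423-5p by 1.40 ± 0.36 (limma adjusted p = 0.00460). The 3p to 5p ratio within an input library was 1.64 to 4.89 for miR-615 in undifferentiated and 3.96 to 6.11 in differentiated cells. For miR-423 it was 3.37 to 5.65 and 3.27 to 4.19. Neither ratio differed between the states beyond its spread, with a 2-sided exact permutation p = 0.4 for each, and 0.1 is the smallest that 3 against 3 libraries can give. The ratio of miR-615-3p to miR-423-3p was 0.306 to 1.39 and 1.04 to 1.20 (exact permutation p = 0.5), so the levels of these 2 names overlapped in input. After adjustment over these 3 ratios each exact permutation p was 0.5.

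In the control eluates the arms were far apart, and this is a description, since the 3p arms were chosen on these libraries. miR-615-3p had 24572 reads against 5 of miR-615-5p in undifferentiated and 15778 against 0 in differentiated control libraries. In input the counts were 494 against 149 and 256 against 59, and with the bait 646 against 1 and 1707 against 17. miR-615-5p at its differentiated input level of 19.4 to 48.9 CPM would not have been detectable in the control, where 3 reads were 81.2 to 103 CPM in those libraries. In undifferentiated cells its input level of 89.5 to 153 CPM was near or above the 35.6 to 98.5 CPM of 3 control reads, and the control libraries held 0, 3 and 2 reads. miR-423-3p had 1724 reads against 30 of miR-423-5p in undifferentiated and 779 against 19 in differentiated control libraries, ratios of 57.5 and 41.0. In input the pooled miR-423 ratios were 4.20 and 3.80 and with the bait 7.39 and 4.27. Whether miR-423-5p itself differed between control and bait depended on the scaling. On the authors' scaling it was not called (1.97 ± 0.89, limma adjusted p = 0.0728 in undifferentiated and 0.79 ± 0.89, limma adjusted p = 0.434 in differentiated cells). On library totals it was higher in the control in both states (3.45 ± 0.72, limma adjusted p = 0.00112, and 2.08 ± 0.72, adjusted p = 0.0224). The median log2 difference over all names tested was 1.31 and 0.19 on that scaling. On group means the library-total folds of miR-423-5p were 11.8 and 5.19. The same folds of miR-423-3p, 72.8 and 52.6, were larger. hsa-miR-6509-3p had 121 reads against 5 of hsa-miR-6509-5p and 226 against 7 in the control.

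The arm sequences are shown because the 2 arms of a hairpin come from one precursor and yet the 3p arms had far more reads in the control. Capitals again mark bases 2 to 8.
mmu-miR-615-5p: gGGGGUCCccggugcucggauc
mmu-miR-423-5p: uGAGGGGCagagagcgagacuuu
miR-615-5p lies at chr15:103014926-103014947 and miR-423-5p at chr11:77078122-77078144, each on the strand of its 3p arm. miR-615-5p has 77.3% G and C, more than miR-615-3p, and miR-423-5p 56.5%.

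**Figure D2:**
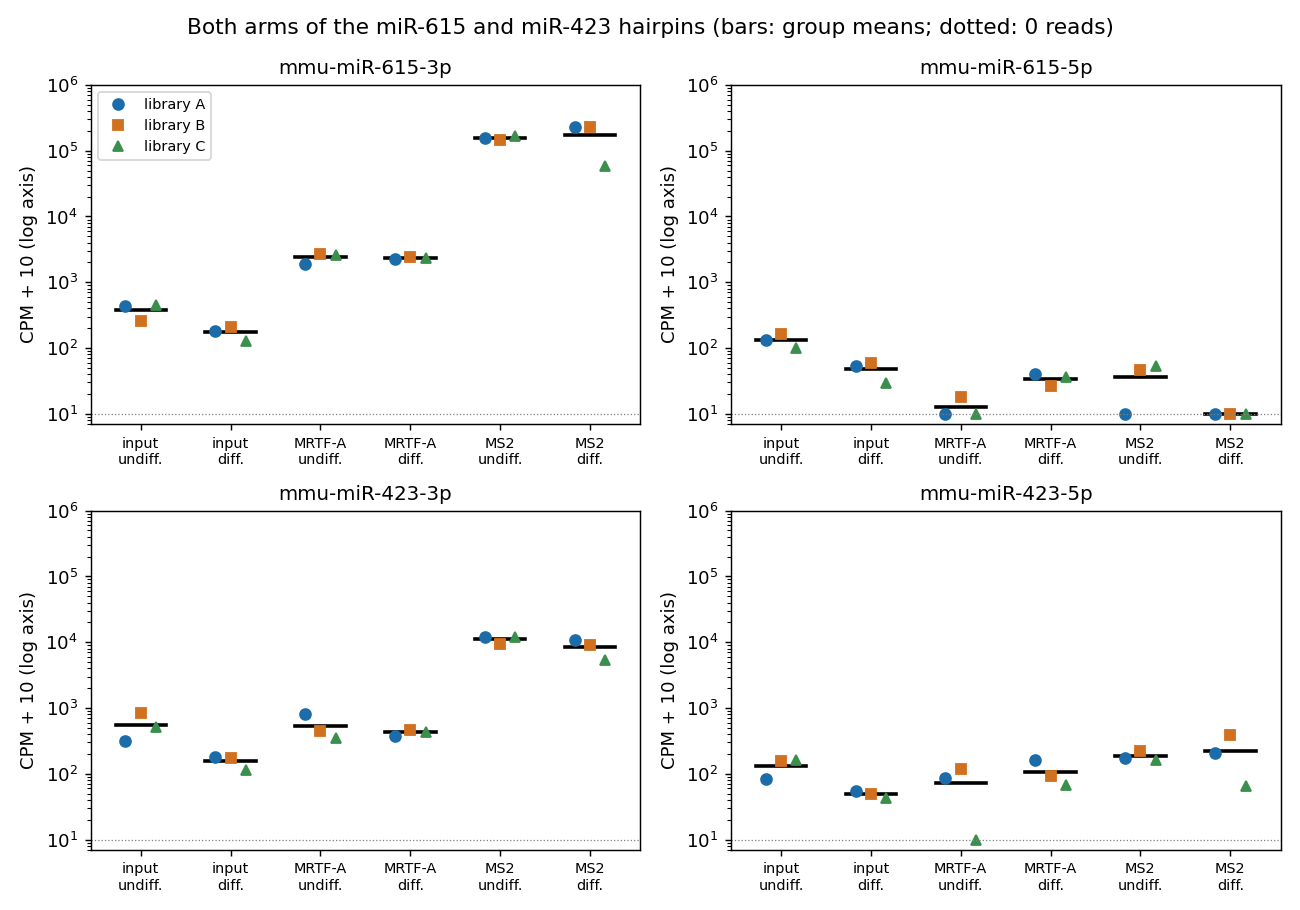
Both arms of the miR-615 and miR-423 hairpins in every library, as deposited CPM + 10 on a log axis; points are libraries A to C, bars are group means and the dotted line marks 0 reads. The 3p arms are highest in the control, while miR-615-5p has 0 reads in 4 of the 6 control libraries and miR-423-5p has 30 and 19 reads in the 2 states.

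Within the control eluates 1 of the 4 names changed with differentiation, against 16.0% of the 169 names tested called higher and 8.88% lower, and 19.5% higher with no overlap of the libraries. The 27 higher and 15 lower calls became 19 and 39 on library totals without the leading names, which are the 4 names, miR-6244 and miR-5099. miR-690 rose by 3.33 ± 0.46 on the log2 scale, or 10.1-fold (95% interval of the log2 difference 2.34 to 4.33, limma adjusted p = 0.000131). Over 22 alternatives the rise was 2.57 to 3.60, but these reuse the same control libraries and add no separate evidence. The control libraries are among those the names were chosen on, and the control stood further above the bait for miR-690 in differentiated cells. Its choice may therefore favour a rise in this direction, and the p-value is not independent of that choice. In shares of reads, which no scaling factor enters, miR-690 was at 0.0328% to 0.0487% in undifferentiated and 0.350% to 0.405% in differentiated control libraries. The undifferentiated libraries hold 8 to 17 reads of it each and the differentiated ones 63 to 85. The striated muscle markers moved in the same libraries, from 23.7 to 85.4 CPM in undifferentiated to 6409 to 9167 CPM in differentiated control eluates, and their part in the miR-690 change was not tested.

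The other 3 names were not called in the control. miR-615-3p differed by -0.08 (95% interval -1.06 to 0.91, limma adjusted p = 0.970), and by 0.57 without differentiated control library C. miR-423-3p differed by -0.47 (-1.24 to 0.30, limma adjusted p = 0.342), although on library totals without the leading names it was called lower (-1.29, adjusted p = 0.0475). hsa-miR-6509-3p differed by 1.36 (-0.83 to 3.54, limma adjusted p = 0.342), the widest interval of the 4. In the bait eluates none of the 3 mouse names was called by limma, where 23.7% of the 169 names were called higher and 14.8% lower (40 and 25, or 37 and 43 by DESeq2). The differences were 0.00 (-0.98 to 0.98) for miR-615-3p, -0.26 (-1.02 to 0.51) for miR-423-3p and 0.53 (-0.47 to 1.52) for miR-690. hsa-miR-6509-3p passed the filter on low counts only through the control and had 0 and 3 bait reads in the 2 states, so its change with the bait was not tested.

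**Figure D3:**
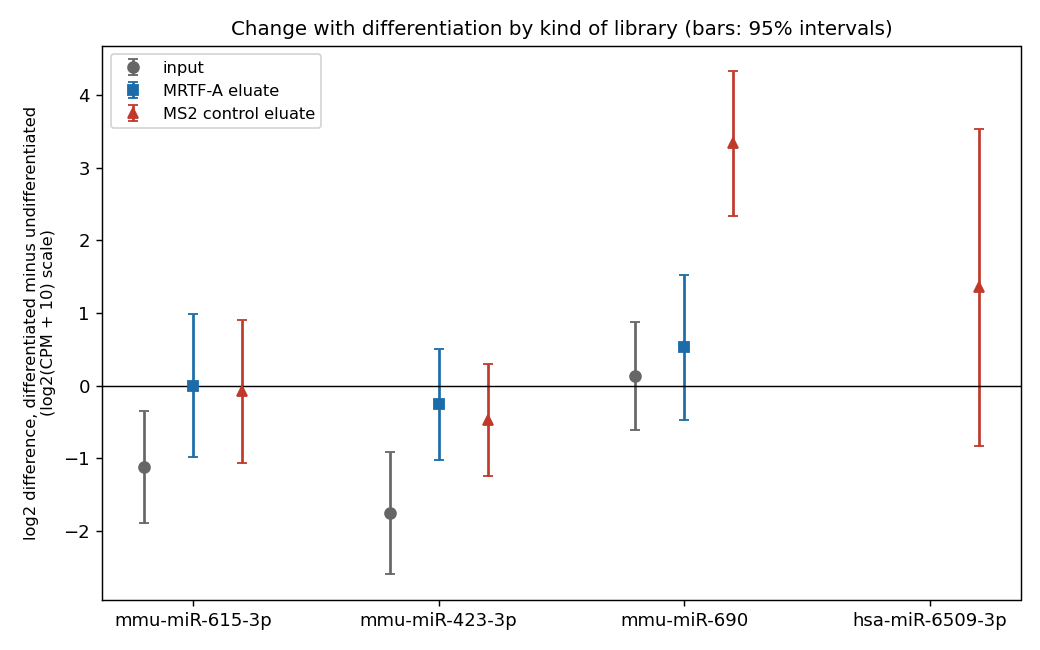
Change of each name with differentiation in input, MRTF-A bait and MS2 control libraries, as the log2 difference on the log2(CPM + 10) scale with its 95% interval from limma, 3 libraries against 3. The control value of miR-690, 3.33, stands above 0 while its input and bait intervals include 0, and the input values of miR-615-3p and miR-423-3p lie below 0; hsa-miR-6509-3p has no input or bait value.

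For miR-690 the change in the control was above that in the bait eluates by 2.80 on the log2 scale, at 1.90 to 3.12 over 22 alternatives. This is the contrast the names were chosen on, set between states, so it is a description with no test. Control minus bait for miR-690 ranked 13th in undifferentiated cells and 3rd in differentiated cells, so its choice rests more on the differentiated contrast, which favours a positive value. For miR-615-3p and miR-423-3p the same quantity was -0.08 and -0.21.

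Whether a name changed more in the control than in input was tested by the difference of the changes, a comparison added after the data were seen. The limit given for the control change of miR-690 holds here too. For miR-690 the change in the control exceeded that in input by 3.20 ± 0.58 (limma adjusted p = 0.00461), with 10.1% of 276 names called higher and 1.09% lower (28 and 3, or 7 and 7 by DESeq2). The median of all 276 names was 0.68, and relative to it miR-690 was at 2.51. On library totals without the leading names this call was lost (1.93, adjusted p = 0.0986), and over the 22 alternatives the adjusted p was 0.000880 to 0.0986. miR-615-3p and miR-423-3p were not called, at 1.04 ± 0.67 and 1.29 ± 0.55 (limma adjusted p = 0.336 and 0.165). For miR-615-3p the value became 1.69 without differentiated control library C, its low one, and then passed the threshold (limma adjusted p = 0.0316). It was 0.35 on library totals, -0.0011 with TMM factors of the fitted libraries and -0.32 on library totals without the leading names, and was not called there.

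The control libraries fell into 2 kinds by their reads on human-named miRNAs, and hsa-miR-6509-3p made up 42.9% to 78.6% of those reads. Without it the other human-named miRNAs took 0.370%, 0.438% and 0.312% of undifferentiated A and differentiated A and B, and 0.0403%, 0.0657% and 0.0193% of undifferentiated B and C and differentiated C. The 3 control libraries high in hsa-miR-6509-3p were thus the 3 high in the other human names. Human-named reads were not confined to the control. Differentiated input C held 695 of them (0.221% of its reads), a larger share than in the 3 low control libraries, and undifferentiated input A held 311 (0.106%). These 2 inputs had 0 and 1 reads of hsa-miR-6509-3p. Human-named reads took 0.00941% to 0.0212% of the other inputs and at most 0.00314% of any bait library. Of the 133 other human names 52 had a read and 4 passed the filter in the eluates. All 4 of these, hsa-miR-6511b-5p, hsa-miR-6511b-3p, hsa-miR-548az-5p and hsa-miR-6514-5p, were higher in the control than with the bait in each state by limma, with a median of 3.04 and 3.42. A name that passed only through the control had to differ, so that count adds nothing about human names in general.

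The state changes were fitted again within each kind of control library. The fits without the 3 libraries of more human-named reads and without the 3 of fewer are among the 22 alternatives. Over these the control change of miR-690 was 2.57 to 3.60. Both fits reuse control libraries that the names were chosen on, and the split itself uses reads of hsa-miR-6509-3p. They therefore add no separate evidence on miR-690. Without the 3 of more human-named reads differentiated cells are left with library C, the low one for miR-615-3p, so no change of that name is read from that fit. In each of these fits 1 state keeps a single control library, which is assumed to vary like the other groups.

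**Figure D4:**
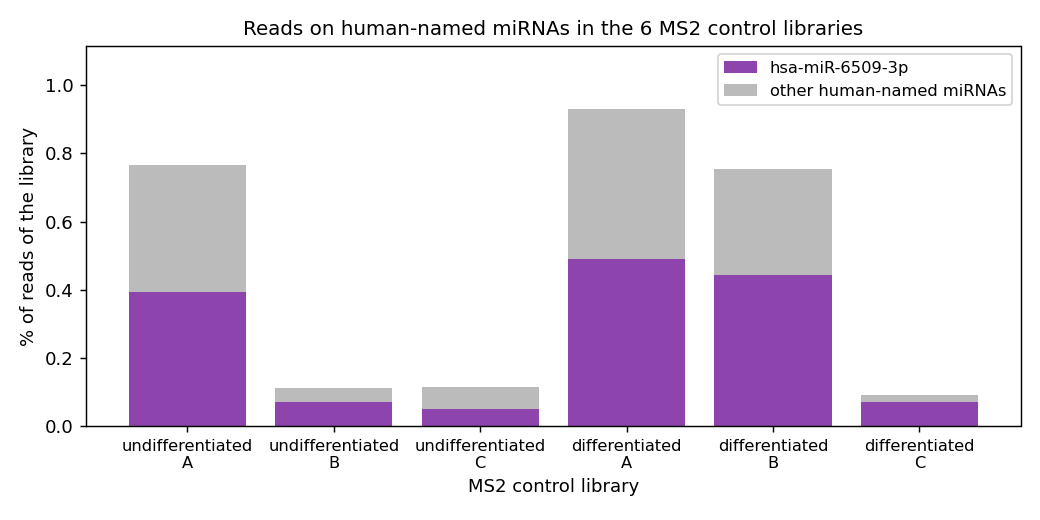
Share of reads on human-named miRNAs in the 6 MS2 control libraries, as stacked bars of hsa-miR-6509-3p and the other human-named miRNAs, in percent of the reads of a library. Undifferentiated A and differentiated A and B stand at 0.755% to 0.930% in all, and the other 3 libraries at 0.0900% to 0.115%.

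Other miRNAs of the Hox clusters, where miR-615 lies, differed among themselves between control and bait, and their values depended on the scaling. Of 9 such names, 8 had a read and 3 were tested in the eluates. miR-196a-5p was lower in the control than with the bait in both states (-3.09 ± 0.72, limma adjusted p = 0.00232, and -4.94 ± 0.72, adjusted p = 4.83e-05). miR-196b-5p was at -1.49 ± 0.74 (limma adjusted p = 0.0971) in undifferentiated cells and was lower in differentiated cells (-4.48 ± 0.74, adjusted p = 0.000124). miR-10a-5p was at 0.28 ± 0.54 (limma adjusted p = 0.679) in undifferentiated cells and was higher in the differentiated control (2.33 ± 0.54, limma adjusted p = 0.00158). On library totals miR-10a-5p was higher in the control in both states, 4.10-fold and 19.5-fold on group means (limma adjusted p = 0.0201 and 0.000369). On that scaling the median log2 difference over all names tested was 1.31 in undifferentiated and 0.19 in differentiated cells. miR-10a-5p was at 1.87 and 3.56, so its undifferentiated value was close to the general shift on library totals. There miR-196b-5p was 1.28-fold and 0.105-fold the bait, and was lower in differentiated cells alone (limma adjusted p = 0.862 and 0.00192). miR-196a-5p was 0.595-fold and 0.0815-fold the bait on library totals, and its undifferentiated call was lost (limma adjusted p = 0.127 and 0.000895). In input 2 of 4 tested, miR-196a-5p and miR-10a-5p, fell by 0.77 and 0.83, against 46.3% of all names tested and a median of -0.64.

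The 2 other leading names of the control had many reads elsewhere too. miR-6244 was at 276740 ± 117617 CPM in the differentiated control but also had 112856 reads in differentiated input, where miR-615-3p had 256, and on the authors' scaling it was not called between control and bait (1.54 ± 0.68 and 1.45 ± 0.68, limma adjusted p = 0.0655 and 0.0659). On library totals miR-6244 was higher in the control in both states, 12.8-fold and 7.09-fold on group means (limma adjusted p = 0.000211 and 0.000688). Its log2 differences there were 3.44 and 2.90, against medians of 1.31 and 0.19 over all names tested. miR-5099 was not called on the authors' scaling (1.65 and 0.14, limma adjusted p = 0.187 and 0.904). On library totals it was 18.2-fold and 2.10-fold above the bait, and was called in undifferentiated cells (limma adjusted p = 0.00906 and 0.184). In the control miR-5099 fell by 4.45 ± 1.06 with differentiation (limma adjusted p = 0.00835), opposite to miR-690. Its undifferentiated control libraries spanned 12734 to 180255 CPM. With the bait miR-5099 was lower in differentiated cells too (-2.94 ± 1.06, limma adjusted p = 0.0448).

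Likeness of profile was measured as the root mean square difference of log2(CPM + 10), each name centred on its own mean, over the 18 libraries and 168 other names. The libraries share depth and scaling, so this is a description. They also include the control and bait libraries that the names described here were chosen on. That choice favours small distances between the chosen names. No likeness between the chosen names is therefore read from these distances or from how far they lie below the median. Nearest to miR-615-3p were hsa-miR-6509-3p (1.63), miR-423-3p (1.80) and miR-5119 (2.09), against a median of 5.00 over names. Nearest to hsa-miR-6509-3p were miR-423-3p (1.44), hsa-miR-6514-5p (1.54) and miR-615-3p (1.63). miR-423-3p was nearest to miR-6396 (1.24), miR-129b-3p (1.24) and miR-6355 (1.26). miR-690 was nearest to hsa-miR-6514-5p (1.08), miR-1941-5p (1.17) and miR-6355 (1.19), and none of the other 3 names was among its nearest.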

How the data were processed

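Small RNA reads of 50 bp from 18 libraries were processed on mm10 (GRCm38). The submitters' processing notes name edgeR 3.18.1 and featureCounts 1.4.6, and further Bowtie2 2.0.13 with cutadapt 1.4.2, with no settings, strand or rule for reads of several matches. The deposited signal is a CPM by the authors. The log2 fold changes and the p-values with FDR are those of the authors' deposited table, per the file headers. The column names carry the group and a suffix but not the sample number, so libraries were assigned to groups only.

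Within each library the deposited values were whole multiples of 1 step, and whole reads were recovered for 100% of values within 0.01 read. The main test was limma 3.58.1 (R 4.3.3, trend) on log2(CPM + 10), where 10 is the pseudocount, for names kept by filterByExpr, with Benjamini-Hochberg adjustment over all names tested and a threshold of 0.05. A fold on this scale understates the change of low names. The 6 inputs, the 12 eluates, or the 6 inputs with the 6 control libraries were fitted. DESeq2 1.42.0 and edgeR 4.0.16 were run on the recovered reads as alternatives, and edgeR called 201 names in input, 35 in the control and 86 with the bait for the state change. The scripts were checked on simulated data. Replicate libraries differed by more than read sampling (chi-square per degree of freedom at least 3.90). Tables were made with pandas 2.3.3 and numpy 2.4.6, permutation tests with scipy 1.17.1 and figures with matplotlib 3.10.9, all in Python 3.11.15.

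The names in the text are the 4 members, their other arms, other Hox-cluster miRNAs, miR-6244 and miR-5099, the human names as a count, the 3 names nearest in profile to each member and neighbours in rank. Members and lists were chosen with earlier results of these data known. The planned test of the control minus bait contrast between states is given for members as a description, since they were chosen on that contrast. miR-99a-5p, miR-199a-3p and miR-676-3p were named after their values were seen. The authors' comparisons of eluates were not used.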

Additional observations from a re-analysis of the deposited data

Results flagged for a closer look

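The change of miR-690 with differentiation differed between control eluates and input. The change in the control exceeded that in input by 3.20 on the log2 scale (limma adjusted p = 0.00461 for the difference itself), and on library totals without the leading names the call was lost (1.93, adjusted p = 0.0986). All 3 differentiated control libraries were above all 3 undifferentiated ones. miR-690 was chosen on the control libraries, which may favour this direction, and the p-values are not independent of that choice. Groups of 3 libraries are too small for a test of single stray libraries, so none was made.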

How the results depend on the processing

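A control library of 15562 to 39695 reads cannot show a name under 3 reads, which is 35.6 to 103 CPM, and the authors' factors differ between kinds of library. No paired analysis was possible because the column names carry no replicate number of the labels. Of 246 values under alternatives that keep all libraries or leave out 3 control libraries, 187 kept their direction and their side of the threshold, and of 252 values with 1 library left out 227 did. Counts of calls were held to a range of 1.5 times and values with no test to 1 SD between libraries. The comparison of control and input changes and the fits without 3 control libraries were added after seeing the data. For the reversals and lost calls below the cause was not tested.

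In input the fall of miR-615-3p became -0.47 by DESeq2, -0.63 on library totals, -0.58 on library totals without the leading names, -0.47 with TMM factors of the fitted libraries and -1.37 to -0.91 with 1 library left out. The difference of miR-690 ranged from -0.0943 to 0.34 with 1 library left out. In the control the difference of miR-615-3p was 0.16 by edgeR, 0.15 by DESeq2, -1.37 and 0.57 without the 3 control libraries of more human-named reads (which leaves differentiated library C alone) and of fewer, and -0.41 to 0.57 with 1 library left out. miR-423-3p was at -1.29 on library totals without the leading names.

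With the bait 35 names were called on library totals and 37 without the leading names, against 65. miR-615-3p was at -0.0147 by edgeR, -0.54 by DESeq2 and -0.15 to 0.0875 with 1 library left out, and miR-423-3p at 0.0160 on library totals without the leading names and -0.52 to 0.0936 with 1 library left out.

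For the difference of control and bait changes the 22 calls became 11 and 38 with pseudocounts of 1 and 50, 2 with no filter, 0 by edgeR, 13 by DESeq2, 0 on library totals, 13 without the 3 libraries of more human-named reads and 4 to 30 with 1 library left out. The lowest were 4 without differentiated control B, 5 without undifferentiated control C, 8 without differentiated bait B and 14 without differentiated bait C. At an unadjusted p under 0.05 limma called 50. The values of the names are a description. miR-690 was at 1.90 on library totals without the leading names and at 2.44 to 3.12 with 1 library left out. miR-615-3p was at 0.17 by edgeR, 0.69 by DESeq2, -1.18 on library totals without the leading names, -1.37 and 0.57 without the 3 control libraries of more and of fewer human-named reads and -0.41 to 0.57 with 1 left out. miR-423-3p was at 0.38 by DESeq2, -0.65 on library totals, -1.30 without the leading names, -0.73 without the 3 control libraries of more human-named reads and -0.56 to 0.0755 with 1 left out.

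For the difference of control and input changes the 31 calls became 50 with a pseudocount of 50, 17 with no filter, 14 by edgeR, 14 by DESeq2 (7 higher and 7 lower), 13 on library totals, 58 and 59 without 3 control libraries and 8 to 47 with 1 left out. It was 47 without differentiated control A, 20 without differentiated input A, B or C, 19 without undifferentiated input A and 8 without undifferentiated input C. miR-690 was at 1.93 on library totals without the leading names. miR-615-3p was at -0.32 there, at -0.0011 with TMM factors of the fitted libraries, at -0.25 without the 3 libraries of more human-named reads and at 0.71 to 1.69 with 1 left out, and miR-423-3p at -0.0717 on library totals without the leading names.

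On library totals the log2 differences that describe the chosen names moved. Control minus bait was 7.93 and 7.40 for miR-615-3p in the 2 states, 3.91 and 6.43 for miR-690 and 6.31 and 5.66 for miR-423-3p. Control minus input in undifferentiated cells was 9.67, 2.90 and 5.39. Bait minus input was 1.75 and 2.63 for miR-615-3p, -1.01 and -0.95 for miR-690, -0.92 and 0.33 for miR-423-3p and -0.14 for hsa-miR-6509-3p in undifferentiated cells.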
